A study of Arabidopsis thaliana with 30 samples.

Results

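Seed storage protein and oleosin transcripts were examined in young seedlings of Arabidopsis thaliana. The 10 genes were 3 cruciferin genes, CRA1 (AT5G44120), CRU2 (AT1G03880) and CRU3 (AT4G28520), 5 genes of 2S albumins, SESA1 (AT4G27140), SESA2 (AT4G27150), SESA3 (AT4G27160), SESA4 (AT4G27170) and SESA5 (AT5G54740), and 2 oleosin genes, OLEO1 (AT4G25140) and OLEO2 (AT5G40420). They were chosen by locus identifier, and all 10 were found among the 25300 genes of the deposited table. A filter of at least 1 CPM, a read count scaled to the total of its library, in at least 3 libraries kept 21780 genes and 8 of the 10. SESA1, which reached that level in 1 library, and SESA4, which reached it in 2, are given by their values with no test.

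The study sequenced poly(A) RNA of whole 4-d-old seedlings grown in continuous red light, either with the last 2 d at 27 °C or at 21 °C throughout. For every library the plated seeds had first been through a cold period (stratification) of 5 d at 4 °C. Per the study's methods, seedlings were taken 96 h after this cold period, so their age of 4 d leaves it out. The genotypes were pif457, a triple mutant of the growth-promoting transcription factors PIF4, PIF5 and PIF7; hyl1-2, a mutant of HYL1, a cofactor of microRNA processing; dcl1-24/hyl1-2, in which the hyl1-2 mutation is combined with an allele of DCL1, the enzyme that releases microRNAs; MIM156, in which the viral 35S promoter drives a decoy RNA that sequesters miR156; and Col-0, the wild type. The 10 groups of genotype and temperature had 3 libraries each, 30 in all, and 1 CPM corresponded to between 18.4 and 27.1 reads, depending on the depth of the library. The labels number the libraries of a group as replicates 1 to 3 and do not say whether they came from separate sowings, so the p-values below measure only the spread between these libraries.

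Cruciferins, the 12S globulins, and napin-type 2S albumins are the main proteins that a developing Arabidopsis embryo lays down in its protein storage vacuoles, and the germinating seedling takes them apart as a source of nitrogen and sulphur. Oleosins coat the oil bodies, the droplets of triacylglycerol that feed the seedling before it can photosynthesise. Their genes are switched on during seed maturation by the transcription factors ABI3, FUS3 and LEC2 together with bZIP proteins, and chromatin and B3-domain repressors switch them off as the seedling takes over. ABI3-type B3 proteins bind the RY element and bZIP proteins bind ACGT-cored abscisic acid response elements (ABRE). In RNA of whole seedlings fewer cells holding a transcript and less of it per cell cannot be told apart.

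The genes lie on chromosomes 1, 4 and 5 of the RefSeq assembly TAIR10.1. SESA1 to SESA4 stand in tandem on the plus strand of chromosome 4, between positions 13607329 and 13614283, each with 1 exon, and SESA5 stands alone on chromosome 5. The coding sequences of SESA1 to SESA4 were 80.6 to 89.7% identical, with a longest shared run of 49 bases, so reads of this cluster were mostly separable but a share could be missed by counting unique matches. The cruciferin genes have 4 exons each, and the coding sequences of CRA1 and CRU2 were 73.9% identical. OLEO1 and OLEO2 have 2 exons each and overlap genes on the opposite strand, AT4G25150 and AT5G40410, which averaged 1.59 and 0.436 CPM. The sources used here do not say whether the counting used strand, so for OLEO1, which averaged 0.740 CPM over the 30 libraries, and less so for OLEO2 at 4.03 CPM, part of the count could belong to the neighbour.

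The 250 bases before the RefSeq gene start are printed for 5 genes whose patterns are set against each other below, in the direction of transcription, with every RY core (CATGCA) and every ABRE core (ACGTG), read on either strand, in capitals.
CRA1 chr5:17758337-17758586 (−): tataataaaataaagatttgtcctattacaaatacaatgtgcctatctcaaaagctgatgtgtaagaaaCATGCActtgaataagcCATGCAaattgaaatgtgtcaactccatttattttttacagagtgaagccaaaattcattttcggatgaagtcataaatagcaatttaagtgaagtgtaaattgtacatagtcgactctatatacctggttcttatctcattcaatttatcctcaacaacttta
CRU3 chr4:14087306-14087555 (+): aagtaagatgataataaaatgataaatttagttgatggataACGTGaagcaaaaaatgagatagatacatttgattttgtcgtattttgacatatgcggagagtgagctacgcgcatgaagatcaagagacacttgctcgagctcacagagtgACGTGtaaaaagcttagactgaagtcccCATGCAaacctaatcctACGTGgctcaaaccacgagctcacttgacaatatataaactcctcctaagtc
SESA3 chr4:13611546-13611795 (+): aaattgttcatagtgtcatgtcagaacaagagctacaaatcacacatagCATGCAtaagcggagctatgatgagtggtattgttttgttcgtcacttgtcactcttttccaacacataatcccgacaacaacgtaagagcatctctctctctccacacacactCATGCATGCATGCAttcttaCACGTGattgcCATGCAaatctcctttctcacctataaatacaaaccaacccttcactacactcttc
SESA5 chr5:22239188-22239437 (−): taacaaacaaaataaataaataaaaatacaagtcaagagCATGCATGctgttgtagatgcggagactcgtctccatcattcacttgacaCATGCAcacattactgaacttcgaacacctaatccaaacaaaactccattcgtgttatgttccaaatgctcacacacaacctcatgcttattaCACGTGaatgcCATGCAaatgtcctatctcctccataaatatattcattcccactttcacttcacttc
OLEO1 chr4:12900180-12900429 (+): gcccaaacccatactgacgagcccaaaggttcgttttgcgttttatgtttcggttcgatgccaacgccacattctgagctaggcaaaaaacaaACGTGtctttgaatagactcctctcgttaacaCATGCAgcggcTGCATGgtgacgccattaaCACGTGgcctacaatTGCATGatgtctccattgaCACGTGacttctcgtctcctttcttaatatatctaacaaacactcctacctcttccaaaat
CRA1 had 2 RY cores and no ABRE core in this window. CRU3, SESA1 to SESA5 and OLEO1 had both, and CRU2 had neither. SESA3 carried 7 RY cores and OLEO1 carried 5 ABRE cores, counted over both strands. Overlapping matches were counted separately, so these numbers exceed those of the separate stretches in capitals. For comparison, windows of the same length were taken before 22507 protein-coding genes of the deposited table. Of the 9 members whose windows were searched, 8 held an RY core, against 8.14% of these windows. An ABRE core was held by 7, against 23.8%, and both cores by 7, against 2.23%. SESA1 to SESA4 are tandem relatives, so their windows are not independent of each other. The G-box CACGTG, which contains the ABRE core on both strands and which PIF proteins also bind, was found in 6 of the 9 windows, those of SESA1 to SESA5 and OLEO1, against 7.21% of all windows. These are matches of letters and no binding was measured here.

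OLEO2 and CRA1 were present in nearly every library, whereas the other members were close to or at 0 in most. OLEO2 had a median of 1.81 CPM over the 30 libraries and was at 0 in 1, and CRA1 had a median of 1.44 CPM and was at 0 in none. CRU2 was at 0 in 16 libraries, SESA1 in 21, SESA3 in 13, SESA5 in 12, SESA2 in 9, SESA4 in 8, CRU3 in 5 and OLEO1 in 0. A count of 3 reads corresponded to 0.111 to 0.163 CPM, depending on the library, and levels of that size and below were not distinguishable from 0 at this depth.

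The members' reads were unevenly spread over replicates of 1 group. Of 12636 reads of the 10 genes in all libraries, 6047, or 47.9%, came from replicates 2 and 3 of MIM156 at 27 °C. These 2 libraries held 79.4% of all CRU2 reads, 76.0% of all CRU3 reads and 68.8% of all SESA4 reads, but 25% of those of OLEO2. The summed level of the 10 genes was 6.31, 191.7 and 115.6 CPM in MIM156 at 27 °C, in the order of replicates 1 to 3, against 5.14, 13.9 and 2.85 CPM in MIM156 at 21 °C. It was 25.6, 28.2 and 65.6 CPM in pif457 at 27 °C, against 0.660, 10.8 and 1.89 CPM in pif457 at 21 °C. In Col-0 it was 12.3, 18.6 and 10.8 CPM at 27 °C, against 5.86, 5.11 and 3.57 CPM at 21 °C. Replicate 1 of MIM156 at 27 °C was therefore below all Col-0 libraries at 27 °C, and replicates 2 and 3 were above every other library of the series. The spread among replicates was reflected in the fit. The residual SD of the 8 tested members lay between the 98.8th and the 100th percentile of all tested genes, and that of CRU3, 1.65 on the log2 scale, was the highest of all, against 0.257 for the median gene.

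**Figure D1:**
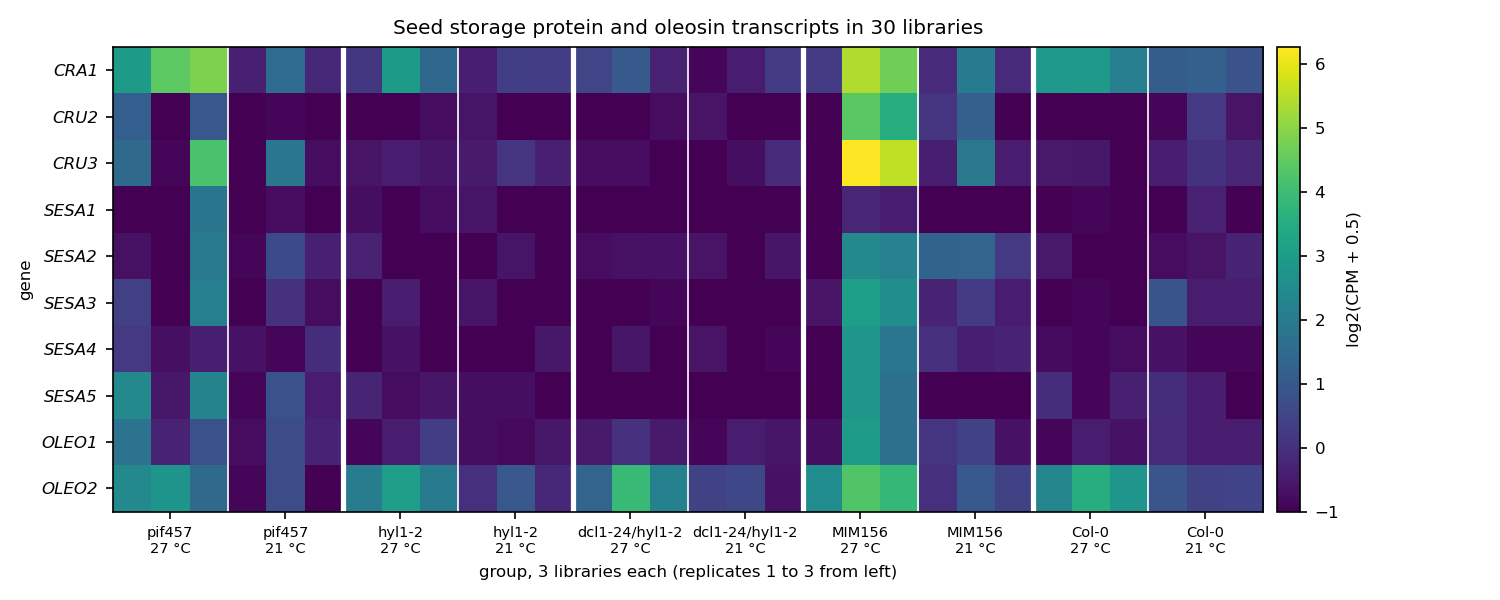
Heat map of the level of each of the 10 genes (rows) in each of the 30 libraries (columns, grouped by genotype and temperature), with colour for CPM on a log scale. Replicates 2 and 3 of MIM156 at 27 °C stand out in the storage protein rows, with CRU3 at 76.3 and 47.2 CPM, while OLEO2 is seen at 27 °C in every genotype.

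Warmth changed the library composition as a whole, which sets the scale for the members. The median gene was higher at 27 °C by 0.36 on the log2 scale in MIM156, by 0.32 in dcl1-24/hyl1-2, by 0.28 in hyl1-2, by 0.27 in Col-0 and by 0.01 in pif457. Log2 changes below are fitted values on log2(CPM + 0.5) with this median subtracted, given with their standard error (SE), and this scale understates the change of genes near 0. A gene was called at an adjusted p under 0.05 in limma with Benjamini-Hochberg adjustment over all 21780 genes, which tests the change before the median is subtracted. In Col-0, 5458 genes were called higher and 1008 lower at 27 °C, and after median-of-ratios scaling the split was 1860 and 2108. The same pair of splits was 7454 and 772 against 1867 and 2123 in MIM156, 5945 and 716 against 1414 and 1720 in dcl1-24/hyl1-2, and 6936 and 1904 against 3118 and 3715 in hyl1-2. In pif457 it was 1704 and 1711 against 1802 and 1989. For MIM156 against Col-0 at 27 °C it was 3554 and 2272 against 2793 and 3179. Shares of all genes given below come from the limma fit without this scaling. They do not apply to counts of members or list genes after scaling, in edgeR or in DESeq2.

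OLEO2 rose with warmth in all 5 genotypes. In pif457 its level was 4.83, 6.29 and 2.36 CPM at 27 °C, against 0.0471, 1.10 and 0 CPM at 21 °C. In hyl1-2 it was 3.66, 7.96 and 3.46 CPM at 27 °C, against 0.483, 1.47 and 0.373 CPM at 21 °C. The lowest library at 27 °C was above the highest at 21 °C in both mutants. In dcl1-24/hyl1-2 the level was 2.11, 14.6 and 4.06 CPM at 27 °C, against 0.842, 0.988 and 0.138 CPM at 21 °C. MIM156 had 5.32, 19.1 and 13.8 CPM at 27 °C, against 0.477, 1.51 and 0.842 CPM at 21 °C. Col-0 had 4.43, 11.0 and 6.44 CPM at 27 °C, against 1.39, 0.843 and 0.866 CPM at 21 °C. The temperatures did not overlap in any of the 5 genotypes, a pattern shown by 7.56% of all tested genes in the same direction.

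The change in OLEO2 was 2.62 ± 0.58 in pif457 (SE, limma adjusted p = 0.00265), 1.84 ± 0.58 in hyl1-2 (adjusted p = 0.00633), 2.06 ± 0.58 in dcl1-24/hyl1-2 (adjusted p = 0.00419), 2.74 ± 0.58 in MIM156 (adjusted p = 0.000344) and 2.00 ± 0.58 in Col-0 (adjusted p = 0.0053). Mean levels at 27 °C were 12.7 ± 6.95 CPM in MIM156, 7.28 ± 3.36 in Col-0, 6.93 ± 6.73 in dcl1-24/hyl1-2, 5.03 ± 2.54 in hyl1-2 and 4.49 ± 1.98 in pif457 (SD, n = 3 each). At 21 °C they were 1.03 ± 0.312 CPM in Col-0, 0.942 ± 0.521 in MIM156, 0.774 ± 0.602 in hyl1-2, 0.656 ± 0.455 in dcl1-24/hyl1-2 and 0.383 ± 0.623 in pif457 (SD, n = 3 each). Ordered by mean, the 10 groups fell into 5 warm groups above 5 cool ones, and 8 of the 9 pairs of neighbours overlapped, all but pif457 at 27 °C and Col-0 at 21 °C. The difference between the response of each line and that of Col-0 was 0.61 for pif457 (95% interval −1.09 to 2.31), −0.18 for hyl1-2 (−1.88 to 1.53), 0.05 for dcl1-24/hyl1-2 (−1.65 to 1.75) and 0.73 for MIM156 (−0.97 to 2.43), and limma called none of them. These intervals are wide and leave room for responses that differ by several-fold. OLEO2 was called under each alternative setting in 4 genotypes and in 14 of 15 in MIM156, where replicate 1 alone at 27 °C gave an adjusted p of 0.0581.

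**Figure D2:**
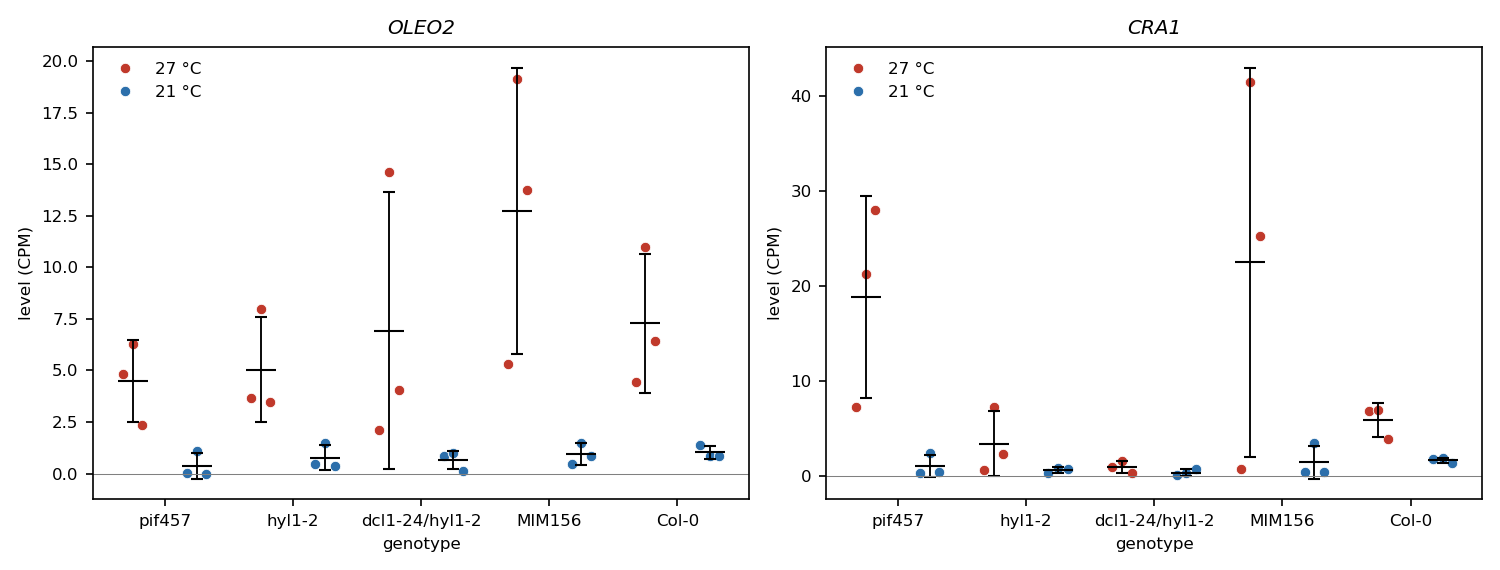
Levels of OLEO2 and CRA1 in CPM (y axis, linear scale) by genotype, with 27 °C left of 21 °C, where each point is 1 library and the lines mark the mean and SD of 3 libraries. OLEO2 separates the temperatures in all 5 genotypes, whereas CRA1 separates them in pif457 and Col-0 only.

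CRA1, the major cruciferin, was called higher with warmth in pif457 and in MIM156. Its level in pif457 was 7.22, 21.3 and 28.0 CPM at 27 °C, against 0.283, 2.39 and 0.378 CPM at 21 °C, with no overlap. The change was 3.74 ± 0.96 on the log2 scale (SE, limma adjusted p = 0.00967), the largest fitted change of a member with warmth, and it was called under all 13 alternatives. MIM156 had 0.730, 41.5 and 25.3 CPM at 27 °C, against 0.424, 3.40 and 0.421 CPM at 21 °C. Replicate 1 at 27 °C lay within the range at 21 °C and the others lay above it, and the change was 2.53 ± 0.96 (SE, limma adjusted p = 0.0231), called in 8 of 15 alternatives and turned to −0.71 when replicate 1 alone stood for 27 °C.

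In the other 3 genotypes CRA1 was not called. Col-0 had 6.85, 6.95 and 3.85 CPM at 27 °C, against 1.72, 1.83 and 1.32 CPM at 21 °C. These groups did not overlap, and the estimate was 1.28 ± 0.96 (SE, limma adjusted p = 0.233). In hyl1-2 the level was 0.635, 7.27 and 2.23 CPM at 27 °C, against 0.269, 0.760 and 0.747 CPM at 21 °C, and in dcl1-24/hyl1-2 it was 0.922, 1.55 and 0.312 CPM at 27 °C, against 0.0496, 0.247 and 0.689 CPM at 21 °C. The estimates there were 1.16 ± 0.96 (adjusted p = 0.234) and 0.44 ± 0.96 (SE, limma adjusted p = 0.565), and the temperatures overlapped in both. Ordered by mean, CRA1 was at 22.5 ± 20.5 CPM in MIM156 at 27 °C and 18.8 ± 10.6 CPM in pif457 at 27 °C, which overlapped each other and, for pif457, stood apart from Col-0 at 27 °C at 5.88 ± 1.76 CPM (SD, n = 3 each). The remaining neighbours in that order overlapped, down to dcl1-24/hyl1-2 at 21 °C at 0.328 CPM.

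CRU2 and CRU3, the other cruciferins, were almost silent in Col-0 and were high in 2 libraries of MIM156. CRU3 was at 0, 76.3 and 47.2 CPM in MIM156 at 27 °C, against 0.265, 3.23 and 0.234 CPM in MIM156 at 21 °C. The group at 27 °C thus held both the lowest and the highest values, and the estimate of 2.90 ± 1.33 was not called (SE, limma adjusted p = 0.0594). CRU2 was at 0, 20.8 and 11.0 CPM in MIM156 at 27 °C, against 0.583, 1.85 and 0 CPM at 21 °C, and was called at 1.84 ± 0.84 (SE, limma adjusted p = 0.0445) although the temperatures overlapped, a call kept in 3 of 15 alternatives. In Col-0, CRU3 was at 0.209, 0.192 and 0 CPM at 27 °C, against 0.232, 0.545 and 0.357 CPM at 21 °C, and CRU2 was at 0 in all libraries at 27 °C, against 0.0465, 0.645 and 0.153 CPM at 21 °C. In pif457 at 27 °C, CRU3 was at 2.35, 0.0393 and 17.7 CPM and CRU2 at 1.77, 0 and 1.48 CPM, so that replicate 2 was the low one there. Limma called neither gene in pif457 (adjusted p = 0.49 and 0.321).

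The 2S albumins, small sulphur-rich storage proteins, followed the same libraries at lower levels. SESA3 was at 0.157, 8.14 and 5.37 CPM in MIM156 at 27 °C, against 0.318, 0.731 and 0.234 CPM at 21 °C, with a change of 1.48 ± 0.67 (SE, limma adjusted p = 0.0334) that was called in 5 of 15 alternatives. SESA5 was at 0, 6.49 and 2.73 CPM in MIM156 at 27 °C, against 0 in all 3 libraries at 21 °C. Set against a floor of 3 reads per library, its mean at 27 °C was at least 21.5-fold higher, and it was called (limma adjusted p = 0.0146), as in 11 of 15 alternatives. For both genes replicate 1 at 27 °C was no higher than the libraries at 21 °C. SESA2 differed in that it was already at 2.02, 2.06 and 0.655 CPM in MIM156 at 21 °C, next to 0, 4.84 and 4.18 CPM at 27 °C, and its estimate was −0.11 ± 0.67 (SE, limma adjusted p = 0.791). SESA4, which was not tested, was at 0, 6.54 and 3.13 CPM in MIM156 at 27 °C, against 0.477, 0.258 and 0.327 CPM at 21 °C. SESA1 was highest in replicate 3 of pif457 at 27 °C, at 3.03 CPM, and reached 0.361 CPM in MIM156 at 27 °C.

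In pif457 at 27 °C, SESA2, SESA3 and SESA5 were lowest in replicate 2. SESA5 was at 4.87, 0.197 and 4.21 CPM, SESA3 at 0.797, 0 and 3.91 CPM, and SESA2 at 0.133, 0 and 3.32 CPM. Replicate 2, the low one for these genes, was the highest of the 3 for OLEO2 and above replicate 1 for CRA1. SESA5 had the largest albumin estimate with warmth in pif457, 1.53 ± 0.67, which was not called (SE, limma adjusted p = 0.132). In hyl1-2 as well as dcl1-24/hyl1-2, no member other than CRA1 and OLEO2 exceeded 0.744 CPM in any library.

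OLEO1, the other oleosin and the more abundant one in mature seed, was called in no genotype with warmth. It was at 0.104, 7.62 and 2.73 CPM in MIM156 at 27 °C, against 0.583, 0.817 and 0.140 CPM at 21 °C, with an estimate of 1.02 ± 0.59 that was not called (SE, limma adjusted p = 0.0665). In Col-0 it was at 0.0418, 0.240 and 0.139 CPM at 27 °C, against 0.418, 0.248 and 0.255 CPM at 21 °C. Those groups did not overlap, with the lower values at 27 °C, and the estimate was −0.61 ± 0.59 (SE, limma adjusted p = 0.701). CRU2, CRU3 and SESA3 likewise had all Col-0 libraries at 27 °C below those at 21 °C. Thus 4 of the 8 tested members showed this pattern, against 6.84% of all genes. These 4 genes passed the filter mainly through MIM156 and pif457 and lay mostly near the floor in Col-0, so that share is no like background. For CRU2 the gap was 0 against a lowest value of 0.0465 CPM at 21 °C, and for CRU3 it was 0.209 against 0.232 CPM. No library of these 4 genes exceeded 1.35 CPM in Col-0, and none was called (limma adjusted p = 0.28 to 0.822).

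**Figure D3:**
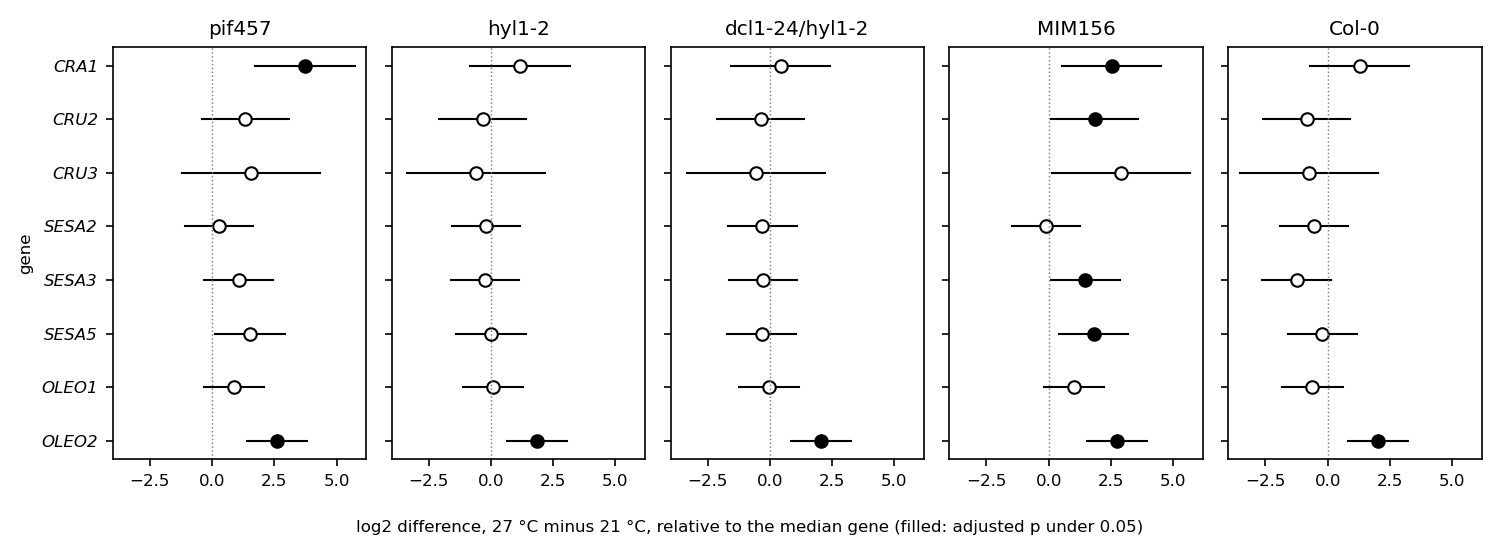
Change of the 8 tested members at 27 °C against 21 °C in each genotype, on the log2 scale relative to the median gene (x axis), with bars for the 95% interval and filled points for adjusted p under 0.05. OLEO2 lies to the right of 0 in all 5 genotypes, from 1.84 to 2.74. Of the other members, CRA1 lies to the right in Col-0 and the rest to the left, whereas in pif457 and MIM156 most lie to the right.

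Counted over the 8 tested members, warmth gave 5 calls in MIM156, all higher, against 37.8% of all genes called in either direction and 34.2% called higher. In pif457 there were 2 calls, both higher, against 15.7% and 7.82% of all genes. There was 1 call each, of OLEO2, in Col-0, in hyl1-2 and in dcl1-24/hyl1-2, against 29.7%, 40.6% and 30.6% called and 25.1%, 31.8% and 27.3% called higher among all genes. The number of members whose libraries at 27 °C were all above those at 21 °C was 1 in MIM156, 2 in pif457, 1 in hyl1-2, 1 in dcl1-24/hyl1-2 and 2 in Col-0, against 43.2%, 19.0%, 38.7%, 39.9% and 34.9% of all genes. Read against these shares, the members as a group did not exceed the background in Col-0, in hyl1-2 or in dcl1-24/hyl1-2. Their median relative change was 1.82 in MIM156 (2.18 with SESA5 at its bound), 1.43 in pif457, −0.09 in hyl1-2, −0.29 in dcl1-24/hyl1-2 and −0.58 in Col-0, where the median of all genes is 0 by construction. CRU2, CRU3, SESA2, SESA5 and OLEO1 reached 1 CPM only in libraries of MIM156 and pif457, and SESA3 besides these only in Col-0 at 21 °C. These genes passed the filter through lines in which they were high. The counts and medians of MIM156 and pif457 are therefore tilted upwards against the shares of all genes. The number called in MIM156 fell to 1 without replicate 2 or without replicate 3 at 27 °C, and was 2 after median-of-ratios scaling and 7 without replicate 1 at 27 °C.

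At 27 °C, replicates 2 and 3 of MIM156 had more of most storage protein transcripts than Col-0, whereas replicate 1 did not. SESA3 was the only member with no overlap, at 0.157, 8.14 and 5.37 CPM in MIM156, against 0, 0.0479 and 0 CPM in Col-0, a difference of 2.55 ± 0.67 (SE, limma adjusted p = 0.00427). CRU3 differed by 4.19 ± 1.33 (adjusted p = 0.0205) and SESA2 by 1.95 ± 0.67 (SE, limma adjusted p = 0.0241). OLEO1 differed by 1.89 ± 0.59 (SE, limma adjusted p = 0.0129). CRU2, which was at 0 in all Col-0 libraries at 27 °C, was on average at least 77.8-fold higher in MIM156 against a floor of 3 reads per library and was called (limma adjusted p = 0.00518). Replicate 1 of MIM156 was at 0 for CRU2, CRU3 and SESA2 and within the Col-0 range for OLEO1, and its 0.157 CPM of SESA3 was 3 reads, so all 5 calls rest on replicates 2 and 3.

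In total, 5 of the 8 members were called higher in MIM156 than in Col-0 at 27 °C, against 26.7% of all genes called in either direction and 16.3% called higher, while 1 of 8 had no overlap upwards, against 29.7%. Here too the filter favoured members that were high in MIM156. OLEO2 and CRA1, the most widely detected members, were not among the 5 called, with differences of 0.59 ± 0.58 (adjusted p = 0.419) and 0.73 ± 0.96 (SE, limma adjusted p = 0.57). The 95% interval reached from −0.62 to 1.79 for OLEO2 and from −1.27 to 2.73 for CRA1. With replicate 1 alone standing for MIM156 at 27 °C no member was called, and the estimates of CRU3, SESA2 and OLEO1 became −0.49, −0.34 and −0.24. MIM156 at 27 °C enters both this comparison and that with MIM156 at 21 °C, so the calls of the comparisons are not independent.

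In limma the other lines gave no call against Col-0 at 27 °C. For pif457, limma called 0 of 8 members, against 17.2% of all genes, with 3 at an unadjusted p under 0.05, while edgeR on whole reads called 4 (CRU2, CRU3, SESA3 and OLEO1) and DESeq2 called 3 (CRU3, SESA3 and OLEO1). OLEO1 was at 2.92, 0.314 and 1.29 CPM in pif457, against 0.0418, 0.240 and 0.139 CPM in Col-0, with no overlap and a difference of 1.56 ± 0.59 (SE, limma adjusted p = 0.0964). CRA1 also stood above Col-0 in every pif457 library, with a difference of 1.57 ± 0.96 (SE, limma adjusted p = 0.34). In dcl1-24/hyl1-2 no member was called, against 2.07% of all genes, and the 1 member at an unadjusted p under 0.05 was CRA1, lower in every library, at −2.38 ± 0.96 (SE, limma adjusted p = 0.24). In hyl1-2 none was called by limma, edgeR or DESeq2, against 4.39% of all genes, and none had an unadjusted p under 0.05.

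At 21 °C no member was called in any line against Col-0 by limma, edgeR or DESeq2, where the shares of all genes called by limma were 8.99% for pif457, 19.4% for hyl1-2, 0.845% for dcl1-24/hyl1-2 and 25.4% for MIM156. The 1 member with an unadjusted p under 0.05 was SESA2, at 2.02, 2.06 and 0.655 CPM in MIM156, against 0.0930, 0.149 and 0.306 CPM in Col-0. These groups did not overlap, and the difference was 1.52 ± 0.67 (SE, limma adjusted p = 0.0974). Between dcl1-24/hyl1-2 and hyl1-2, no member was called at 27 °C, against 11.7% of all genes, or at 21 °C, against 31.5%, by limma, edgeR or DESeq2, and none had an unadjusted p under 0.05.

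The response to warmth of each line was also tested against that of Col-0. No member was called in pif457, hyl1-2, dcl1-24/hyl1-2 or MIM156 by limma, edgeR or DESeq2, against 2.78%, 4.32%, 0% and 1.63% of all genes in limma. At an unadjusted p under 0.05 the numbers were 1, 0, 0 and 4. SESA3 had the lowest adjusted p, with a difference of 2.72 ± 0.94 between the responses of MIM156 and Col-0 (SE, limma adjusted p = 0.145) and of 2.31 ± 0.94 between those of pif457 and Col-0 (adjusted p = 0.259). The larger response of CRA1 in pif457 than in Col-0 was 2.45 ± 1.36 (SE, limma adjusted p = 0.421). That a member was called with warmth in MIM156 or pif457 and not in Col-0 is therefore no evidence that the responses differed.

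The mix of the 10 transcripts also differed between libraries at 27 °C when levels were taken per kilobase of exon. In Col-0, OLEO2 made up 50.0, 73.2 and 72.2% of the summed level per kilobase, and CRA1 38.3, 23.0 and 21.4%. Replicate 1 of MIM156 was more one-sided still, with 89.0% OLEO2. In replicates 2 and 3 of MIM156, CRU3 led with 30.01 and 30.79%, ahead of OLEO2 with 14.6 and 17.45%, CRA1 with 15.7 and 15.9% and CRU2 with 8.99 and 7.89%. In pif457 the leading transcript was SESA5 in replicate 1, with 25.8%, and CRA1 in replicates 2 and 3, with 60.1 and 30.55%. Thus a library with a high total was not a scaled copy of a Col-0 library, and these shares are descriptions of single libraries with no test.

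**Figure D4:**
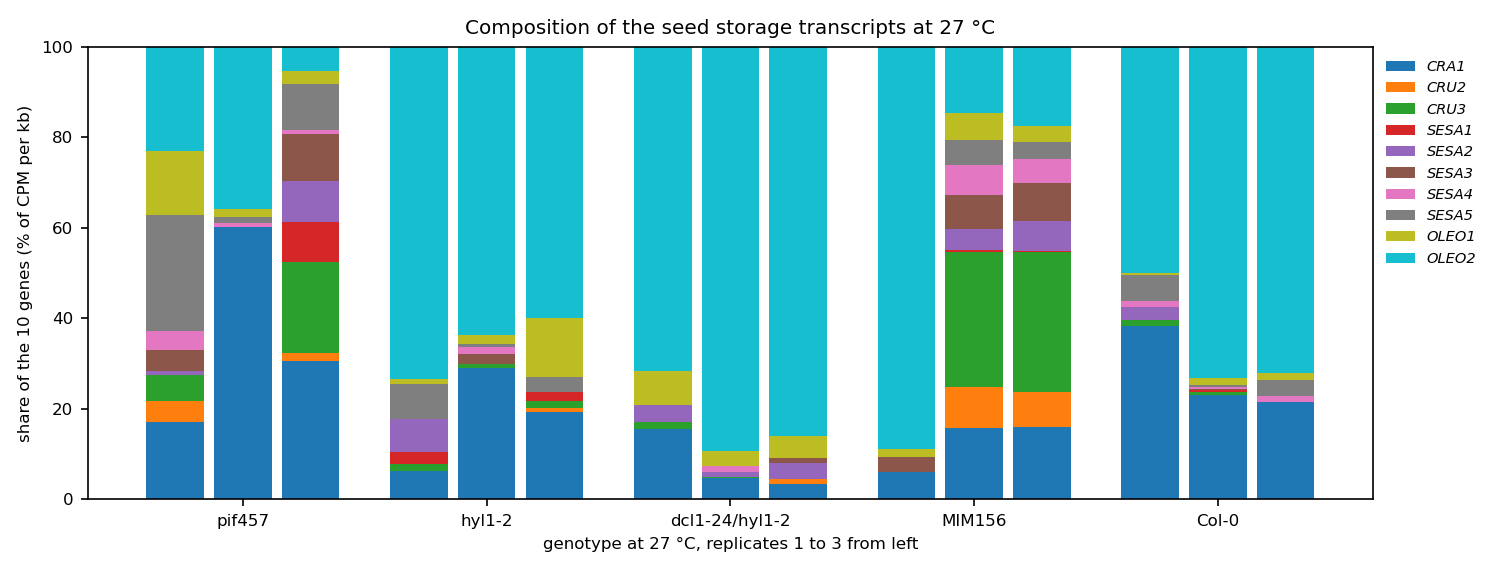
Share of each of the 10 transcripts in their summed level per kilobase of exon (y axis, percent) in the 15 libraries at 27 °C, as stacked bars with Col-0 at the right. OLEO2 and CRA1 fill most of the Col-0 bars, and CRU3 has the largest share in replicates 2 and 3 of MIM156, at 30.01 and 30.79%.

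Likeness of the members over the 30 libraries was uneven. Pearson's r on log2(CPM + 0.5) was 0.92 between CRU2 and CRU3 and 0.94 between CRU3 and SESA3, and it was 0.75 and 0.84 over the 27 libraries without MIM156 at 27 °C. OLEO2 and CRA1 had an r of 0.69, or 0.61 without those libraries. The r of OLEO2 with each of the 8 remaining members was 0.12 to 0.44 over 30 libraries and −0.20 to 0.18 over 27. The points share genotypes, temperatures and sequencing depth, so these values only describe the set.

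Among the 21780 genes that passed the filter, those whose levels followed the members most closely over the 30 libraries were AT1G68250, with an r of 0.747 against the members' mean, AT5G18140 with 0.742, AT5G50700 with 0.739 and OLEO4 (AT3G27660) with 0.739. OLEO4 is a seed oleosin, and AT5G50700 encodes a copy of the oil body steroleosin HSD1. The next were AT3G60690, AT2G21720, ZAT7, AT1G62515, BT5 and CYP89A2, with r between 0.734 and 0.728. EM1, a LEA gene, and CLO1, an oil body caleosin, which did not pass the filter, had an r of 0.763 and 0.758. Of the 10 genes that passed the filter, 9 had their highest level in replicate 2 or 3 of MIM156 at 27 °C. AT1G62515 had it in replicate 3 of pif457 at 27 °C. The 10 were picked by likeness to the members, whose summed level was highest in those 2 MIM156 libraries, so these peaks follow largely from the choice.

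Other genes of the seed programme were examined from lists of known members. The lists were drawn up with earlier results of these data known, so their counts are descriptive. They went through the same filter, which favours genes of low level in the lines where they are high. OLEO4, for instance, had a median of 0.142 CPM over the 30 libraries and its maximum, 2.58 CPM, in replicate 2 of MIM156 at 27 °C. Among other storage and oil body genes, of which 8 of 14 were tested, warmth gave 6 calls in MIM156, 5 in dcl1-24/hyl1-2, 3 in pif457, 3 in Col-0 and 2 in hyl1-2, all higher, against 34.2%, 27.3%, 7.82%, 25.1% and 31.8% of all genes called higher. After median-of-ratios scaling the counts were 5, 2, 3, 3 and 1, in edgeR MIM156 had 3, and with replicate 1 alone at 27 °C it had 2. AT2G28490, a cupin-domain protein related to vicilin-type storage globulins, was at 3.70, 10.1 and 8.40 CPM in MIM156 at 27 °C, against 0.371, 0.602 and 0.234 CPM at 21 °C, and at 5.72, 7.91 and 3.15 CPM in Col-0 at 27 °C, against 1.44, 0.793 and 0.968 CPM at 21 °C. It rose by 2.69 ± 0.40 in MIM156 (limma adjusted p = 2.29e-06) and by 1.63 ± 0.40 in Col-0 (SE, adjusted p = 0.000706), with no overlap in either. So did AT2G18540 and AT4G36700, of the same superfamily, by 1.77 and 1.23 in Col-0. In replicate 1 of MIM156 at 27 °C, where CRU2 and CRU3 were at 0, AT2G28490 was thus within the range of Col-0 at 27 °C.

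PAP85, another vicilin-type globulin, followed genotype more than temperature. It was at 8.24, 14.7 and 13.6 CPM in MIM156 at 27 °C, against 0.209, 0.336 and 0.278 CPM in Col-0 at 27 °C, a difference of 3.90 ± 0.40 with no overlap (SE, limma adjusted p = 8.57e-09). It was also at 7.58, 7.57 and 5.80 CPM in MIM156 at 21 °C. Replicate 1 was high here, unlike for CRU2, CRU3 and the 2S albumins. HSD1 (AT5G50600), whose reads may be shared with its near-identical copy AT5G50700, and OLEO4 were the other 2 of 3 genes of this list called in that comparison, by 2.01 ± 0.44 (adjusted p = 0.000682) and 1.64 ± 0.41 (SE, limma adjusted p = 0.00219). Each of these 2 lost its call when replicate 1 alone stood for MIM156 at 27 °C. In hyl1-2 at 27 °C, AT4G36700 and AT2G28490 were lower than in Col-0, by −1.61 ± 0.35 (adjusted p = 0.00324) and −1.54 ± 0.40 (SE, limma adjusted p = 0.0131).

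Late embryogenesis abundant (LEA) and desiccation genes, which protect the drying embryo and also answer to water loss and abscisic acid in seedlings, gave no call downwards with warmth. Of 22 genes 17 were tested, and 17 rose in MIM156, 15 in dcl1-24/hyl1-2, 14 in pif457, 13 in Col-0 and 7 in hyl1-2, against 34.2%, 27.3%, 7.82%, 25.1% and 31.8% of all genes called higher. After median-of-ratios scaling the numbers were 15, 7, 14, 8 and 5, and with replicate 1 alone for MIM156 at 27 °C it was 3 there. PER1, a seed peroxiredoxin, was at 13.2, 27.8 and 19.7 CPM in MIM156 at 27 °C, against 1.43, 1.72 and 1.26 CPM at 21 °C, a rise of 2.98 ± 0.40 (SE, limma adjusted p = 1.4e-06). RAB18, a dehydrin, was at 22.0, 43.6 and 25.8 CPM in Col-0 at 27 °C, against 4.51, 4.17 and 4.84 CPM at 21 °C, a rise of 2.30 ± 0.55 (SE, limma adjusted p = 0.0016). Neither gene showed overlap between temperatures, and replicate 1 of MIM156 at 27 °C took part in the rise of PER1. No gene of the list was called in MIM156 against Col-0 at 27 °C by limma or edgeR, with 7 at an unadjusted p under 0.05 in limma.

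Calls among the regulators of seed maturation depended on the scaling. Of the 9 tested regulators of 15, limma called 6 with warmth in MIM156, 4 in hyl1-2, 3 in dcl1-24/hyl1-2, 2 in Col-0 and 1 in pif457, all higher, against 34.2%, 31.8%, 27.3%, 25.1% and 7.82% of all genes called higher. After median-of-ratios scaling the counts were 1, 3, 1, 1 and 2. ABI5, a bZIP factor of abscisic acid signalling, was at 4.28, 9.43 and 9.10 CPM in MIM156 at 27 °C, against 2.51, 3.16 and 1.90 CPM in Col-0 at 27 °C, a difference of 1.27 ± 0.34 with no overlap (SE, limma adjusted p = 0.00333), which was not called with replicate 1 alone. ABI3 was at 4.49, 6.80 and 7.01 CPM in MIM156 at 27 °C, against 3.68, 3.36 and 3.57 CPM in Col-0 at 27 °C. FUS3 did not exceed 0.103 CPM in MIM156 at 27 °C. DOG1, a dormancy regulator, rose by 2.64 ± 0.32 with warmth in pif457 (SE, limma adjusted p = 6.66e-07) to 6.91, 3.77 and 6.09 CPM at 27 °C, against 0.424, 0.670 and 0.284 CPM at 21 °C.

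Of the 12 chromatin and B3-domain repressors of the seed programme, warmth gave calls of 6 higher and 0 lower in MIM156, 1 and 1 in pif457, 7 and 0 in hyl1-2, 1 and 0 in dcl1-24/hyl1-2, and 2 and 0 in Col-0. Among all genes 34.2%, 7.82%, 31.8%, 27.3% and 25.1% were called higher, in the same order. After median-of-ratios scaling the counts of the repressors were 1 and 2, 1 and 1, 4 and 1, 0 and 2, and 1 and 1, so their direction depended on the scaling. Of the 15 genes that mobilise reserves, 12 were called higher with warmth in MIM156, 9 in dcl1-24/hyl1-2, 9 in Col-0, 6 in pif457 and 4 in hyl1-2, beside 1 called lower in each of pif457 and hyl1-2. The shares of all genes called higher were 34.2%, 27.3%, 25.1%, 7.82% and 31.8%. After median-of-ratios scaling, 4, 4, 5, 7 and 2 of the 15 were called higher in the same order, and 4 were called lower in hyl1-2 and 1 in pif457. ICL, the isocitrate lyase of the glyoxylate cycle that turns stored oil into sugar, was at 373.4, 604.0 and 523.0 CPM in MIM156 at 27 °C, against 143.3, 64.7 and 54.4 CPM at 21 °C, a rise of 2.26 ± 0.34 (SE, limma adjusted p = 9.88e-06). In Col-0 its rise was 1.80 ± 0.34 (SE, limma adjusted p = 0.000118), also with no overlap.

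A marker of another seed tissue stood apart in MIM156 at both temperatures. EPR1, an extensin-like gene of the endosperm, the layer under the seed coat that a seedling sheds with it, was at 23.0, 32.0 and 29.1 CPM in MIM156 at 27 °C and at 60.1, 52.4 and 29.2 CPM in MIM156 at 21 °C, against at most 9.04 CPM in any other library. The difference from Col-0 at 27 °C was 3.38 ± 0.37 (SE, limma adjusted p = 5.59e-08). EXPA2, an expansin of the germinating endosperm, was at 8.82, 11.7 and 11.1 CPM in MIM156 at 27 °C, against 6.06, 4.22 and 4.31 CPM in Col-0 at 27 °C. The summed level of the 2 of 3 listed markers in the table was 31.8 to 65.2 CPM in MIM156, against 1.87 to 10.3 CPM in the other libraries. Most of the sum in MIM156 was EPR1, and neither marker was at 0 there. EPR1 was high in replicate 1 of MIM156 at 27 °C, in which CRU2 and CRU3 were at 0, and its part in the members' levels was not tested. Summed over 5 genes of green tissue, the level was 28670 to 33021 CPM in MIM156 at 27 °C, against 48889 to 68177 CPM at 21 °C, and 38991 to 46076 CPM in Col-0 at 27 °C, against 57964 to 70701 CPM at 21 °C, and its part in the members' response was not tested either.

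**Figure D5:**
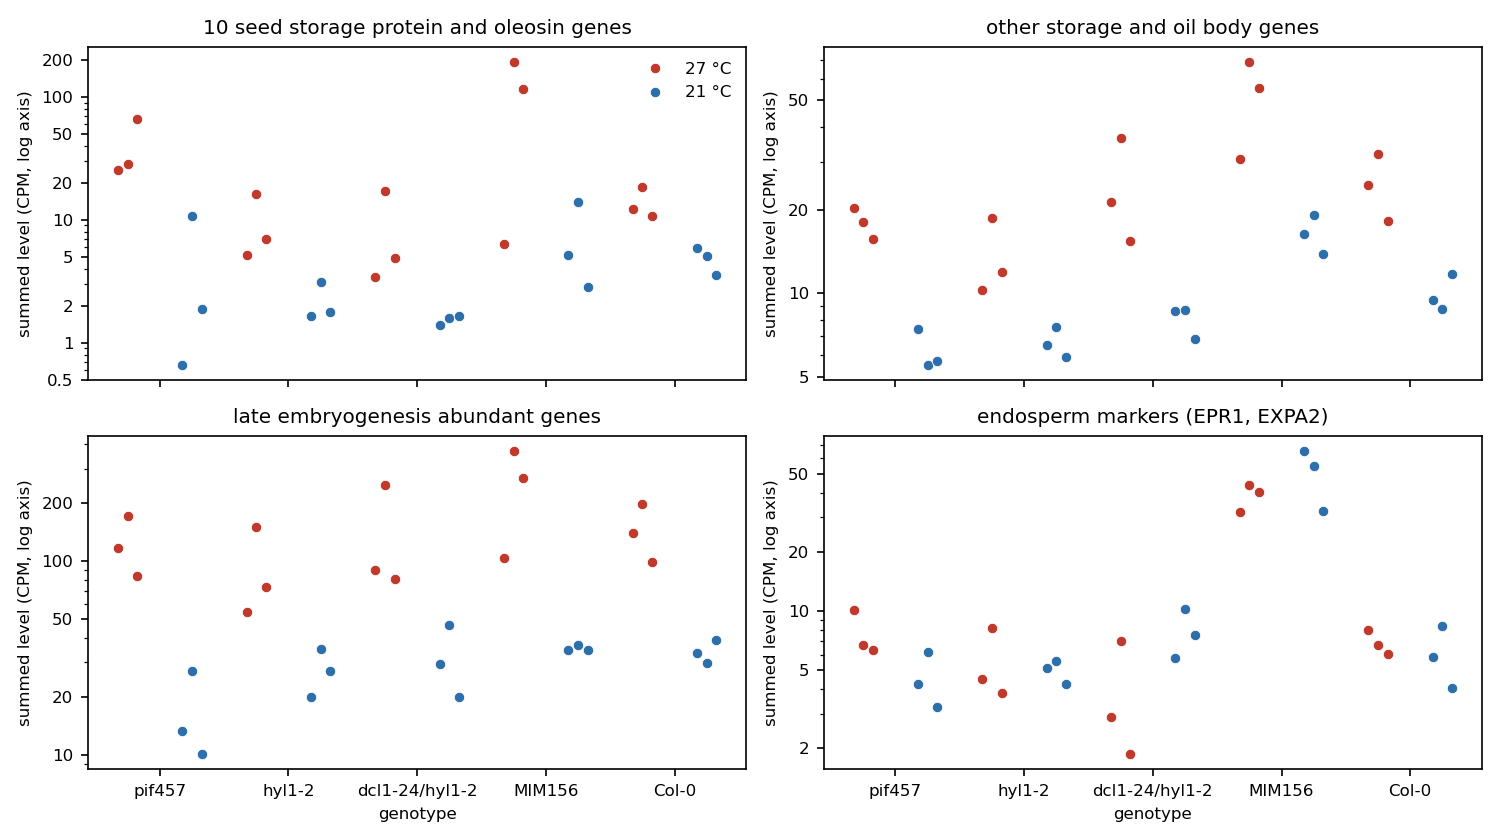
Summed level in CPM (y axes, log scale) of the 10 seed storage protein and oleosin genes, other storage and oil body genes, LEA genes and endosperm markers, with 1 point per library, by genotype and with 27 °C left of 21 °C. The 10 genes and the LEA genes are highest in replicates 2 and 3 of MIM156 at 27 °C, whereas the summed endosperm markers, mostly EPR1, are high in all 6 MIM156 libraries, between 31.8 and 65.2 CPM.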

How the data were processed

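Deposited values and their origin: per the study's methods, the authors mapped reads to Araport11 with STAR 2.7.7a, counted reads that matched 1 place with featureCounts 2.0.1 and tested with DESeq2 1.35.0. The sources used here do not state the strand setting. The deposited table is described by the authors as FPKM, but its values are CPM: columns sum to between 999904 and 999960, and 100% of values were whole reads at a tolerance of 0.001 of a read, with 1 read worth 0.0369 to 0.0543 CPM. The test planned for FPKM was kept, since it fits CPM as well.

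Each gene was fitted on log2(CPM + 0.5) with limma 3.58.1 (trend and robust options), with 1 mean per group over all 30 libraries, after a filter of 1 CPM in 3 libraries, and p-values were adjusted over 21780 genes in each of 19 comparisons. Alternatives were edgeR 4.0.16 and DESeq2 1.42.0 on the recovered reads, median-of-ratios scaling, other pseudocounts and filters, a replicate block, and leaving out each library. No 2 libraries of a group agreed within sampling noise. The upstream window of 1 member is not reported here. Floors of 3 reads cover counting error only. Members and lists were chosen with earlier results of these data known. All 10 members are named, and of each list up to 3 called genes with the largest change and no overlap, besides regulators and markers. Same-numbered libraries deviated together (every correlation over 0.1) in 7 of the 15 comparisons between groups.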

Additional observations from a re-analysis of the deposited data

How the results depend on the processing

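Of 2288 alternative values of single members, 2214 stayed on their side of the threshold, called ones also in direction, 42 lost and 25 gained a call, and 7 turned with a call on one side. The sign changed in 147, of which 139 belonged to members with no call. The 7 were judged before the median was subtracted. They all came from letting replicate 1 alone stand for MIM156 at 27 °C, an alternative chosen after seeing the data, as did the 8 sign changes of members called in the main fit. With warmth CRA1 became −0.71, CRU2 −1.55, SESA3 −0.89 and SESA5 −0.43. Those uncalled in the main fit became −2.40 for SESA2, from −0.11, −1.79 for CRU3 and −1.11 for OLEO1. Against Col-0, CRU2 became −0.17, CRU3 −0.49, SESA2 −0.34 and OLEO1 −0.24, and uncalled CRA1 became −2.50 and OLEO2 −0.50. The number of members called with warmth in MIM156, 5, was 3 with a pseudocount of 0.1, 2 after median-of-ratios scaling, 1 without the third libraries at 21 °C (added after seeing the data) and 1 in the other direction (SESA2, limma adjusted p = 0.0429) with replicate 1 alone. It ran from 1 to 7 over the libraries left out, with 1 without replicate 2 or 3 at 27 °C and 2 without replicate 1 or 3 at 21 °C. Against Col-0 at 27 °C, MIM156 had 5 calls, 0 with replicate 1 alone and 2 to 7 over the libraries left out (2 without MIM156 replicate 2 or 3, 3 without Col-0 replicate 3), and pif457 had 0, with edgeR 4, DESeq2 3 and 0 to 3 over the libraries left out (3 without pif457 replicate 2). The difference in response between MIM156 and Col-0 gave 0 to 5 calls, 5 without MIM156 replicate 1 at 27 °C. With a replicate block the calls with warmth in MIM156 were 4 and no other count of members changed. For genes named from the lists, 247 of 311 alternative values kept their call and 64 lost it, and none turned. The causes were not tested. Most members lie near a floor of 3 reads, and 3 libraries a group limit the precision.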
